A study of Mus musculus with 2 samples.

Results

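MicroRNAs best known from nervous tissue were measured in skeletal muscle of newborn mice, as 10 genes of 5 families among the 1973 microRNA genes counted. The genes were chosen by name: Mir128-1, Mir128-2, Mir132, Mir212, Mir138-1, Mir138-2, Mir218-1, Mir218-2, Mir9-2 and Mir9-3, each found once in both tables by its Ensembl gene ID. Small RNA under 30 bases was sequenced from muscle of B6NCrl mice at postnatal day 0, as replicates 1 and 2, each labelled as a portion of an organ from 1 pup. Both samples carry the same donor record and no sex was collected, so that they come from different pups is taken from their labels as biological replicates. They form 1 group, with no condition to compare, and p-values below measure the counting error between these 2 libraries.

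A microRNA is cut from a hairpin RNA, and either arm of the hairpin can give a mature strand of about the length of the reads counted here. The mature strand pairs with messenger RNAs through its seed, bases 2 to 8, and lowers their output. The families differ in what they are known for. The miR-128 family and the related miR-132 and miR-212 act in neurons, miR-128 on excitability and miR-132 on dendrite growth downstream of the transcription factor CREB, and these families are also known in striated muscle. miR-138 is known from dendritic spines of rat neurons, miR-218 from motor neurons and miR-9 from neural progenitors. On this background Mir128-1, Mir128-2, Mir132 and Mir212 were treated as genes also known in muscle, and the other 6 as mainly neural.

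The libraries held 7955914 and 10816295 counts on the annotated strand of microRNA genes in replicates 1 and 2. Levels are counts scaled to this library total (CPM), not adjusted for length, since the mature sequences of the 10 genes are 21 to 23 bases long. At this depth 3 counts correspond to 0.377 CPM in replicate 1 and 0.277 CPM in replicate 2. The tissue label fitted its markers: the 7 skeletal muscle microRNAs in the tables took 10.9% and 12.3% of counts in replicates 1 and 2, nearly all on Mir206. In muscle pieces taken whole, fewer cells of a type and less RNA per cell cannot be told apart.

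The mature strands for which the families are best known are shown first, with the seed in capitals, because the seed defines what each family can pair with (RefSeq, GRCm38.p6, 5′ to 3′).
miR-128-3p (Mir128-1 and Mir128-2): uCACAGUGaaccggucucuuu
miR-132-3p (Mir132): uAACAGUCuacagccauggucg
miR-212-3p (Mir212): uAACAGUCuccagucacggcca
miR-138-5p (Mir138-1 and Mir138-2): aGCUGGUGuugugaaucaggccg
miR-218-5p (Mir218-1 and Mir218-2): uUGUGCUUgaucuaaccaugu
miR-9-5p (Mir9-2 and Mir9-3): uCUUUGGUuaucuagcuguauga
Only miR-132-3p and miR-212-3p share a seed among these 6. They are identical at 17 of 22 positions and differ by A10C, C14U, U17C, U20C and G22A, counted from 1 at the 5′ end with the miR-132-3p base first. Of the 1738 mature entries in the table, no entry of another name shares the seed of miR-128-3p, miR-138-5p or miR-9-5p. The seed of miR-218-5p recurs in miR-7002-3p.

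The authors did not count reads with several possible origins, which came to 28.0% and 26.9% of all reads in replicates 1 and 2. Which mature strands can be counted for a gene therefore depends on its copies. Of the 20 mature entries of the 10 genes, 10 occurred in no other of 2242 annotated hairpins and 10 were also found in a paralog. Both strands of Mir132 and of Mir212 were unique, whereas both strands of Mir9-2 and Mir9-3 were shared, with each other and with Mir9-1. Each gene of the miR-128, miR-138 and miR-218 families had 1 shared and 1 unique strand. The unique strands are shown because they tell the copies apart, again with the seed in capitals.
miR-128-1-5p: cGGGGCCGuagcacugucuga
miR-128-2-5p: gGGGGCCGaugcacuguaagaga
miR-138-1-3p: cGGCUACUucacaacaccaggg
miR-138-2-3p: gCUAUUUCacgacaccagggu
miR-218-1-3p: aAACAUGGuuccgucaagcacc
miR-218-2-3p: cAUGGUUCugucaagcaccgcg
The 5p strands of the miR-128 copies have the same seed, while the 3p strands of the miR-138 copies and of the miR-218 copies differ in theirs.

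A shared strand can still fit 1 hairpin if a read runs on past its end. The next sequences show the shared strand of each copy followed by the genomic bases up to the first one, in capitals, at which the read fits no other annotated hairpin.
Mir128-1: ucacagugaaccggucucuuuU
Mir128-2: ucacagugaaccggucucuuuC
Mir138-1: agcugguguugugaaucaggccgU
Mir138-2: agcugguguugugaaucaggccgA
Mir218-1: uugugcuugaucuaaccaugugC
Mir218-2: uugugcuugaucuaaccaugugG
Mir9-2: ucuuugguuaucuagcuguaugagugU
Mir9-3: ucuuugguuaucuagcuguaugagugC
Past the 3′ end, a run of 1 further base was enough for miR-128-3p and miR-138-5p, 2 were needed for miR-218-5p and 4 for miR-9-5p. For miR-9-3p the number was 6 in Mir9-2 and 2 in Mir9-3. Ahead of the 5′ end, 1 further base was enough for miR-218-5p in both genes and for miR-9-5p in Mir9-3, while miR-128-3p needed 3. The tables give 1 count per gene, so how many counts came from each strand, or from reads with such an extension, is not recorded in them. Counts of the 8 genes with a shared strand leave out reads of that strand that fit several places. The copies of miR-128 and of miR-138 part at 1 base past the shared strand. A read altered at that base could be counted for the other copy, so the counts are not strict lower limits per gene. How often this happened was not tested.

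**Figure D1:**
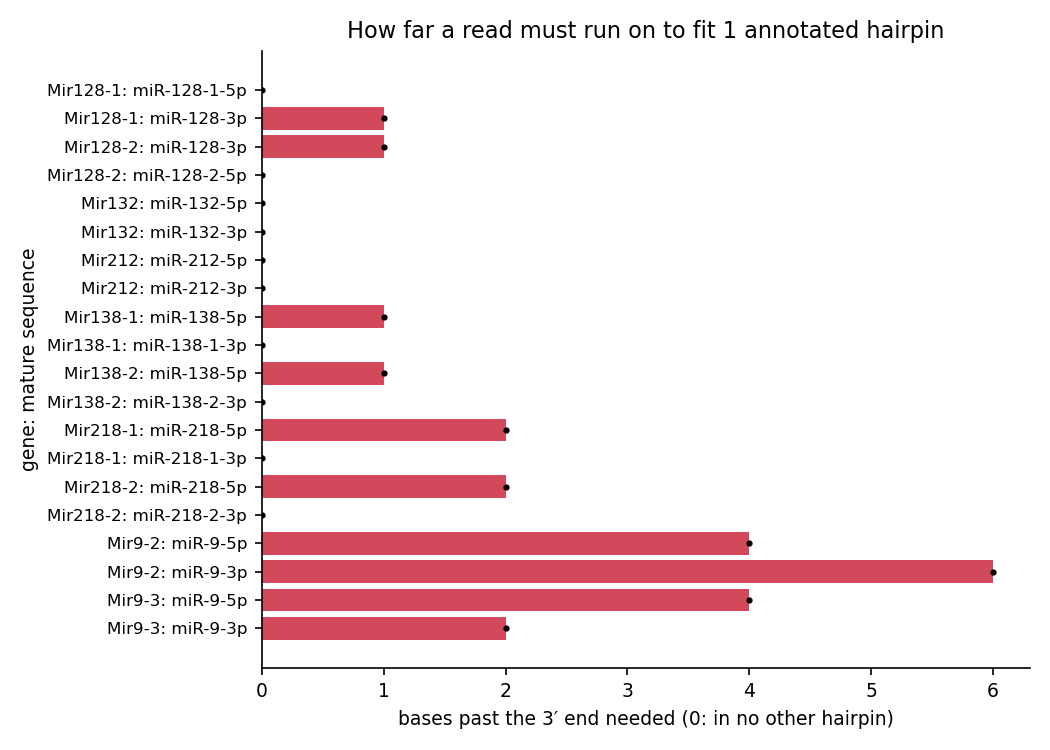
Bars give the number of bases past the 3′ end that a read of each mature sequence (rows) needs before it fits no other annotated hairpin, for the 10 genes; a point at 0 marks a sequence found in no other hairpin. The miR-9 rows reach 2 to 6 bases, the miR-218-5p rows 2, and the miR-128-3p and miR-138-5p rows 1.

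Together the 10 genes took 0.104% of counts in replicate 1 and 0.1000% in replicate 2. Genes also known in muscle made up almost all of this, with 979 CPM in replicate 1 and 975 CPM in replicate 2. The 6 mainly neural genes summed to 63.3 CPM in replicate 1 and 24.7 CPM in replicate 2. The genes known in muscle thus exceeded the mainly neural ones 15.4-fold in replicate 1 and 39.5-fold in replicate 2. The copies of miR-128 on 1 side and of miR-9, miR-138 and miR-218 on the other all share their best known strand, while Mir132 and Mir212 do not, so counts are missing on both sides and the fold holds for reads that fit 1 place. Of the 10 genes, 8 had at least 10 counts in both libraries, the minimum used for detection, against 18.5% of all 1973 genes.

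Mir128-1 was the most abundant of the 10. It lies in an intron of R3hdm1 on chromosome 1, 128202361 to 128202430 (GRCm38, plus strand). It had 3858 counts (485 CPM) in replicate 1 and 4617 counts (427 CPM) in replicate 2, a mean of 456 CPM ± 41.1 (SD, n = 2). Mir128-2 lies in an intron of Arpp21 on chromosome 9, 112118636 to 112118711 (minus strand). It had 2816 counts (354 CPM) in replicate 1 and 4577 counts (423 CPM) in replicate 2, a mean of 389 CPM ± 48.9. Mir128-1 was above Mir128-2 in replicate 1 and the copies were nearly level in replicate 2, while the family summed to 839 CPM in replicate 1 and 850 CPM in replicate 2. Of the 7 muscle microRNA genes in the tables, Mir206 stood far above this sum, with 107144 CPM in replicate 1 and 120690 CPM in replicate 2. Mir133b had 841 CPM in replicate 1 and 823 CPM in replicate 2, Mir208b 732 CPM and 763 CPM, and Mir499 545 CPM and 442 CPM. The other 3, Mir1a-1, Mir133a-1 and Mir133a-2, had 10.1 CPM or less in both. These levels, too, are of reads that fit 1 place.

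Mir132 and Mir212 lie 203 bases apart on chromosome 11, both in an intron of the noncoding gene 1700016P03Rik, with Mir212 at 75173388 to 75173478 and Mir132 at 75173682 to 75173747 (plus strand). Mir132 had 1010 counts (127 CPM) in replicate 1 and 1240 counts (115 CPM) in replicate 2, a mean of 121 CPM ± 8.70 (SD, n = 2). Mir212, from the same transcript unit, had 101 counts (12.7 CPM) in replicate 1 and 115 counts (10.6 CPM) in replicate 2, a mean of 11.7 CPM ± 1.46. The libraries were close for both genes, and Mir132 stood 10-fold or more above its neighbour in each. The mature strands of this pair were found in no other annotated hairpin.

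The miR-138 copies came next and differed between the libraries. Mir138-2 lies in an exon of the noncoding gene C78859 on chromosome 8, 94324311 to 94324381 (plus strand). It had 185 counts (23.3 CPM) in replicate 1 and 106 counts (9.80 CPM) in replicate 2. Mir138-1 lies in an exon of the transcribed pseudogene Gm47135 on chromosome 9, 122682876 to 122682974 (plus strand). It had 171 counts (21.5 CPM) in replicate 1 and 67 counts (6.19 CPM) in replicate 2. Both copies were higher in replicate 1, with means of 16.5 CPM ± 9.51 for Mir138-2 and 13.8 CPM ± 10.8 for Mir138-1 (SD, n = 2).

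The miR-218 genes lie in introns of Slit2 and Slit3, which encode secreted guidance proteins of axons. Mir218-2, in Slit3 on chromosome 11, 35616816 to 35616925 (plus strand), had 123 counts (15.5 CPM) in replicate 1 and 67 counts (6.19 CPM) in replicate 2, a mean of 10.8 CPM ± 6.55 (SD, n = 2). Mir218-1, in Slit2 on chromosome 5, 48223942 to 48224051 (plus strand), had 22 counts (2.77 CPM) in replicate 1 and 18 counts (1.66 CPM) in replicate 2, a mean of 2.21 CPM ± 0.779. The Slit3 copy was higher than the Slit2 copy in both libraries.

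The miR-9 genes had the fewest counts of the 10. Mir9-3, in an intron of Mir9-3hg on chromosome 7, 79505264 to 79505353 (plus strand), had 2 counts in replicate 1 and 8 in replicate 2, which is 0.251 CPM (95% exact Poisson interval 0.0304 to 0.908) and 0.740 CPM (0.319 to 1.46). Mir9-2, in an exon of the noncoding gene C130071C03Rik on chromosome 13, 83738814 to 83738885 (plus strand), had 1 count in each library, or 0.126 CPM (0.00318 to 0.700) in replicate 1 and 0.0925 CPM (0.00234 to 0.515) in replicate 2. Neither gene reached the minimum of 10 counts in both libraries. Since both mature strands of both genes also fit Mir9-1, these counts set no upper limit on mature miR-9 in the tissue. Intervals cover counting error only, since the labels name no molecular identifiers by which copies of a molecule could be recognised.

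**Figure D2:**
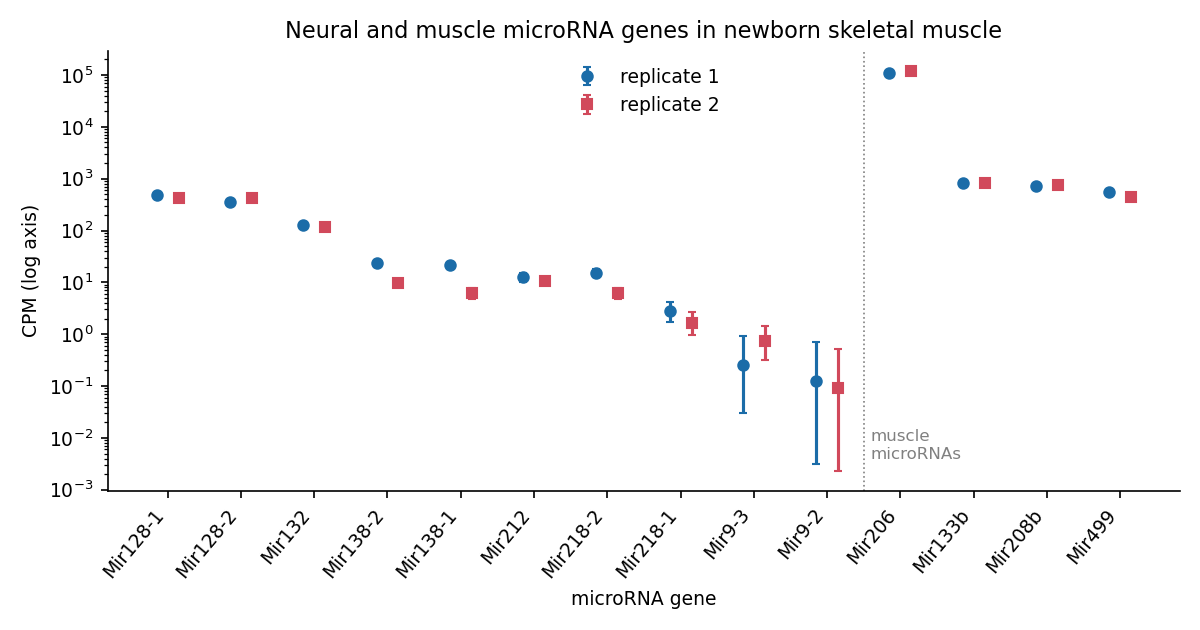
CPM on a log axis for the 10 neural microRNA genes, ordered by mean level, and, right of the dotted line, 4 muscle microRNA genes; circles are replicate 1, squares are replicate 2 and bars are 95% exact Poisson intervals. The miR-128 genes lie at 354 to 485 CPM, below Mir133b and Mir208b in both libraries, while the miR-9 genes stay below 1 CPM.

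By mean CPM the order was Mir128-1, Mir128-2, Mir132, Mir138-2, Mir138-1, Mir212, Mir218-2, Mir218-1, Mir9-3 and Mir9-2. Between neighbours in this order, the values of the libraries overlapped for Mir138-2 and Mir138-1, for Mir138-1 and Mir212, and for Mir212 and Mir218-2. These 4 genes cannot be ordered beyond the spread between the libraries. Within each library Mir138-2 stood above Mir138-1. The 95% interval of Mir138-1 over Mir138-2 holds 1 in replicate 1 (0.746 to 1.14) but not in replicate 2 (0.458 to 0.866). The step from Mir9-3 to Mir9-2 rests on 2 and 1 counts in replicate 1 and on 8 and 1 in replicate 2, too few to order them. For Mir128-1 over Mir128-2, the 95% interval of the ratio in replicate 2 (0.968 to 1.05) holds 1. Mir212 stood below Mir138-1 and Mir218-2 in replicate 1 and above both in replicate 2. The largest step lay between Mir132 and Mir138-2, with a ratio of means of 7.31. Both strands of Mir132 are unique, while the count of Mir138-2 lacks reads of miR-138-5p that fit several places. This step and the ranks that follow thus hold for reads that fit 1 place. Among the 365 detected genes the ranks were 122 for Mir128-1, 130 for Mir128-2, 162 for Mir132, 245 for Mir138-2, 252 for Mir138-1, 258 for Mir212, 263 for Mir218-2 and 328 for Mir218-1. The miR-128 genes and Mir132 were thus in the upper part of the detected genes, above 66.6%, 64.4% and 55.6% of them, while the other 5 stood above 10.1% to 32.9%.

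The genes closest in mean level give a sense of scale. Mir125b-2 (456 CPM ± 71.2, SD, n = 2) stood directly above Mir128-1 and Mir708 (433 ± 240) directly below. Mir128-2 lay between Mir24-2 (393 ± 13.2) and Mir668 (387 ± 166), and Mir132 between Mir34c (125 ± 69.3) and Mir671 (120 ± 63.5). The SDs of Mir708, Mir34c and Mir671 were several times those of the neural genes beside them.
Mir138-1 lay between Mir3070a (13.9 CPM ± 0.623) and Mir208a (13.8 ± 2.37), a microRNA of a cardiac myosin gene. Mir138-2 lay between Mir30c-2 (17.6 ± 0.880) and Mir3074-1 (16.3 ± 4.49), with smaller SDs than its own. Mir212 lay between Mir653 (11.7 ± 2.90) and Mir544 (11.6 ± 2.12). Mir218-2 lay between Mir7688 (10.9 ± 5.58) and Mir6236 (9.71 ± 2.09), and Mir218-1 between Mir7019 (2.22 ± 1.31) and Mir3080 (2.14 ± 0.535).

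**Figure D3:**
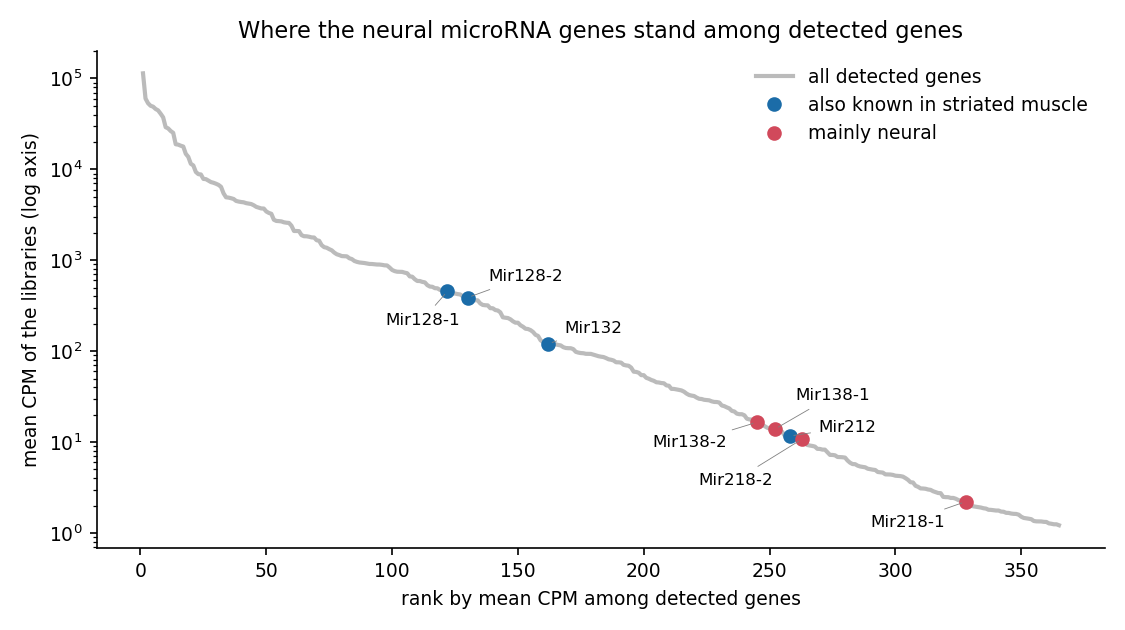
Mean CPM of the libraries on a log axis against rank for the 365 detected genes (grey line), with the 8 detected neural microRNA genes as points coloured by group. Mir128-1, Mir128-2 and Mir132 stand at ranks 122 to 162, and the other 5 at ranks 245 to 328.

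Ratios between the genes of a family were compared within each library, where library size drops out. Mir132 exceeded Mir212 10-fold in replicate 1 (95% exact interval 8.14 to 12.4) and 10.8-fold in replicate 2 (8.90 to 13.2), so the ratio of this pair was alike in both samples within counting error. Mir128-1 exceeded Mir128-2 1.37-fold in replicate 1 (1.30 to 1.44), while in replicate 2 the ratio was 1.01 (0.968 to 1.05). These intervals do not overlap, although the sum of the pair in CPM differed little between the libraries (log2 ratio of replicate 1 over replicate 2 -0.02). With the scaling used for ratios between libraries below, the log2 ratio of the sum was -0.26, higher in replicate 2. Mir138-1 over Mir138-2 was 0.924 in replicate 1 (0.746 to 1.14) and 0.632 in replicate 2 (0.458 to 0.866). Mir218-1 over Mir218-2 was 0.179 in replicate 1 (0.108 to 0.283) and 0.269 in replicate 2 (0.150 to 0.457). For both of these pairs the intervals of the libraries overlap. From 3 and 9 counts in all, Mir9-2 over Mir9-3 was 0.500 in replicate 1 (0.00847 to 9.60) and 0.125 in replicate 2 (0.00282 to 0.932), too few to compare.

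**Figure D4:**
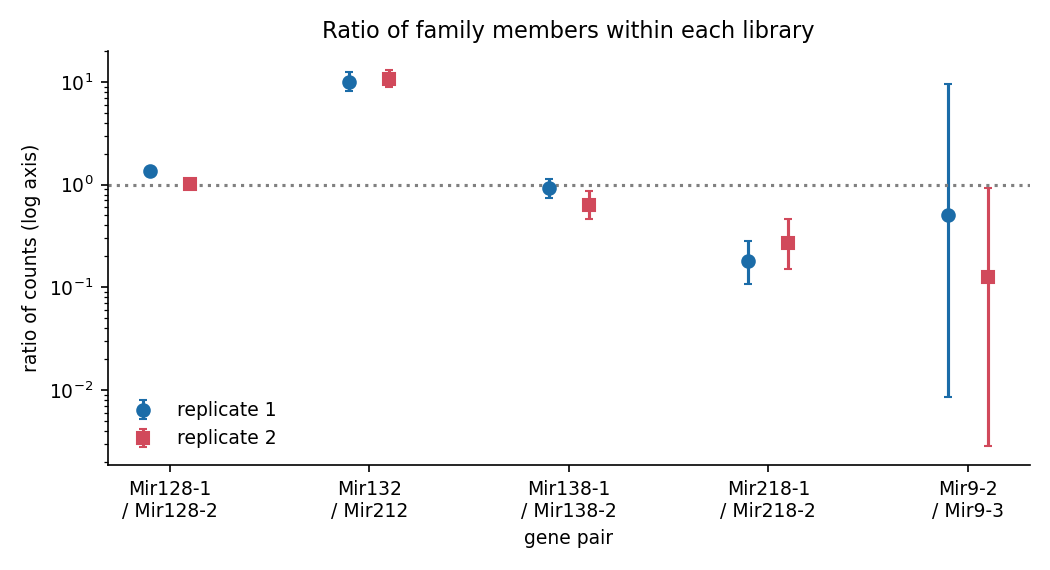
Ratio of counts on a log axis for the 5 pairs of family members within replicate 1 (circles) and replicate 2 (squares), with 95% exact binomial intervals; the dotted line marks a ratio of 1. Mir132 stands about 10-fold above Mir212 in both libraries, and only the Mir128 pair has intervals that do not overlap.

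Between the libraries, both miR-138 genes and Mir218-2 were higher in replicate 1 by 2-fold or more, while the genes also known in muscle stayed under 2-fold. Ratios are log2 values of replicate 1 over replicate 2 after scaling by the trimmed mean of M values (TMM), and are 0.25 lower than with library totals. A gene was called when its ratio was at least 2-fold and its p, from an exact binomial test (two-sided) adjusted by Benjamini-Hochberg over the 365 detected genes, was under 0.05. This held for 3 of the 8 detected neural genes, all higher in replicate 1, against 7.40% of all 365 genes, with 6.30% higher in replicate 1 and 1.10% higher in replicate 2. Of the 3, all were mainly neural (3 of 4 detected), against 0 of 4 genes also known in muscle, and a difference between these groups was not tested. The test compares the libraries and no condition, with only counting error taken into account, and 61.1% of all detected genes passed the adjusted p alone.

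The 3 genes were Mir138-1, Mir218-2 and Mir138-2. Mir138-1 had a log2 ratio of 1.55 (95% interval 1.13 to 1.98, exact binomial test, adjusted p 1.33e-14). Mir218-2 had a ratio of 1.07 (0.63 to 1.53, exact binomial test, adjusted p 1.31e-06). Mir138-2 had a ratio of 1.00 (0.65 to 1.36, exact binomial test, adjusted p 1.57e-08), at the 2-fold line, and fell short of it at 0.99 with DESeq2 size factors. The fourth detected gene of this group, Mir218-1, had a ratio of 0.49 from 22 and 18 counts in replicates 1 and 2, with an interval of -0.48 to 1.47 that holds both no difference and the sizes seen for the others (exact binomial test, adjusted p 0.437).

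Of the genes also known in muscle, Mir128-1 had a log2 ratio of -0.06 (95% interval -0.12 to 0.00), Mir132 one of -0.10 (-0.22 to 0.02) and Mir212 one of 0.01 (-0.39 to 0.41). None of these passed the adjusted p with TMM (0.0804, 0.158 and 1, exact binomial test). With library totals Mir128-1 had 0.18 (exact binomial test, adjusted p 1.31e-08) and Mir132 0.15 (adjusted p 0.0269). Both then passed it, higher in replicate 1, while Mir212 did not. With DESeq2 size factors Mir128-1 had -0.08 and passed it, higher in replicate 2 (exact binomial test, adjusted p 0.0265). Mir128-2 passed it with each of these scalings, higher in replicate 2. Its TMM ratio was -0.50 (-0.57 to -0.44, exact binomial test, adjusted p 1.88e-48), under 2-fold. With TMM the median ratio was 1.04 for the 4 mainly neural genes and -0.08 for the 4 also known in muscle, against 0.01 over all detected genes. With library totals these medians were 1.28, 0.17 and 0.26. They are descriptions, since the genes were grouped with earlier results known.

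Markers of other cells differed between the samples in either direction, but among them genes were called at 2-fold only in the epithelial list. Of the 7 epithelial genes, all detected, 5 were called higher in replicate 1, against 6.30% of all 365 detected genes. The list summed to 531 CPM in replicate 1 and 334 CPM in replicate 2. The 5 called genes were Mir200a, Mir200b, Mir200c, Mir141 and Mir429, with log2 ratios of 1.20 to 2.52, while Mir203 and Mir205 of skin had -0.12 and -0.07. Of the 4 glial genes listed, 3 were found by symbol and 2 were detected. That list summed to 381 CPM in replicate 1 and 198 CPM in replicate 2, nearly all from Mir338, and the erythroid list, with both genes detected, to 583 CPM and 286 CPM. The neuron list had 3 of its 6 genes detected and summed to 86.9 CPM in replicate 1 and 60.5 CPM in replicate 2, with Mir124a-1, Mir124a-2 and Mir124a-3 at 0 counts in both and Mir129-1 at a log2 ratio of -0.36. The endothelial gene Mir126a had a ratio of -0.32 and passed the adjusted p (exact binomial test), higher in replicate 2. Of 6 detected muscle genes, 3 passed it in that direction, against 113 of all 365 detected genes. The median of the 6 was -0.18. Medians were -0.09 for 2 cartilage genes, -0.04 for 2 leukocyte genes and 0.03 for 2 smooth muscle genes, and the cardiac Mir208a had 0.11. The part of these cells in the difference of the miR-138 and miR-218 genes was not tested.

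**Figure D5:**
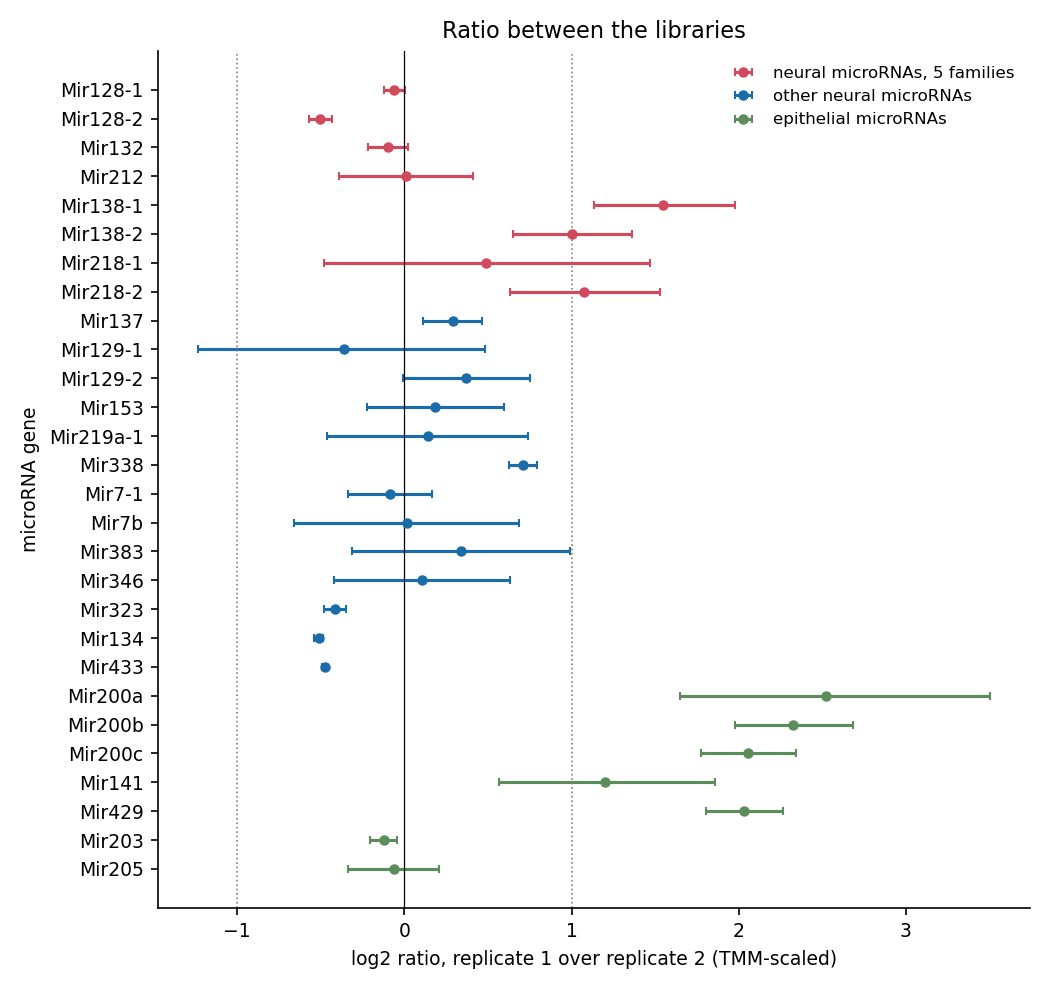
Log2 ratio of replicate 1 over replicate 2 after TMM scaling for the 8 detected neural microRNA genes (red), 13 other neural microRNA genes (blue) and 7 epithelial genes (green), with 95% exact intervals; dotted lines mark 2-fold. Mir138-1, Mir138-2 and Mir218-2 lie at 1.00 to 1.55, the genes also known in muscle at -0.50 to 0.01 and 5 epithelial genes above 1.

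Other microRNAs of the nervous system were looked up by symbol as a list of 20 genes, of which 18 were found and 13 were detected, against 18.5% of all genes. Mir9-1 and Mir219b were not found, and whether they have a row under another name was not checked. Mir137, which acts in neuronal maturation, had 68.5 CPM in replicate 1 and 47.3 CPM in replicate 2, a level between those of Mir132 and Mir138-2. Both strands of Mir137 are unique, whereas Mir138-2 has 1 shared strand, so this order is of reads that fit 1 place. Mir338, typical of oligodendrocytes and Schwann cells, had 374 CPM in replicate 1 and 193 CPM in replicate 2, below Mir128-1 in both. Its log2 ratio of 0.71 (95% interval 0.63 to 0.79) was under 2-fold, as were those of all 13 detected genes of the list.

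The family members Mir129-2 (15.7 and 10.3 CPM in replicates 1 and 2) and Mir129-1 (2.64 and 2.87 CPM) were at the level of the miR-138 and miR-218 genes. So was Mir153, with 12.8 CPM in replicate 1 and 9.52 CPM in replicate 2. Both strands of Mir153 are unique, whereas each miR-138 and miR-218 gene has 1 shared strand. Like CPM of these genes therefore need not mean like amounts of RNA. Mir7-1 stood above Mir153 and the Mir129 genes with 30.5 CPM in replicate 1 and 27.4 CPM in replicate 2. Mir346 (7.67 and 6.01 CPM), Mir219a-1 (6.03 and 4.62 CPM), Mir383 (5.53 and 3.70 CPM) and Mir7b (4.65 and 3.88 CPM) were lower than Mir153 in both. The glial gene Mir219a-2, with 6 and 1 counts in replicates 1 and 2, and Mir7-2, with 11 and 9, were not detected. The strands miR-129-5p, miR-7a-5p and miR-219a-5p are each shared between copies, and their reads that fit several places were not counted. Levels of the Mir129 and Mir219a genes, Mir7-1 and Mir7-2 are therefore of reads that fit 1 place.
The 3 Mir124a genes, the best known neuron-specific microRNAs, had 0 counts in both libraries, for which the allowance of 3 counts is 0.377 CPM in replicate 1 and 0.277 CPM in replicate 2 of uniquely placed reads for each. The upper ends of their 95% exact Poisson intervals are 0.464 CPM in replicate 1 and 0.341 CPM in replicate 2. Their hairpins share runs of 31 to 32 bases with each other, longer than the RNA sequenced, so reads from these runs fit several places and were not counted. As for miR-9, no upper limit on the mature microRNA follows.

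Much more abundant were Mir433 (7181 CPM in replicate 1 and 8435 CPM in replicate 2), Mir134 (2446 and 2947 CPM) and Mir323 (407 and 458 CPM). These microRNAs are known in neurons and belong to the imprinted Dlk1-Dio3 domain. Their log2 ratios were -0.48, -0.51 and -0.42, in the direction opposite to that of the miR-138 and miR-218 genes, and each passed the adjusted p (exact binomial test) under 2-fold. Of the other 10 detected genes of the list, 8 had a ratio above 0, against 192 of all 365 detected genes. The median of these 10 was 0.16 against 0.01 over all detected genes. Of these 10, Mir137 with 0.29 (0.11 to 0.46) and Mir338 passed the adjusted p, both higher in replicate 1. Over all 365 detected genes, 110 passed it higher in replicate 1 and 113 higher in replicate 2.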

How the data were processed

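The authors deposited, for each sample, raw counts per microRNA gene for 1973 genes on either, the annotated and the opposite strand, with 4 rows that name no gene and stayed out of all totals. Per the readme text beside the tables, the assembly was mm10 and the annotation GENCODE M4; what aligned and counted the reads is not given in the sources used here. Both strand columns add up to the first column, which does not tell the strands apart. Which of them is the annotated strand was inferred from the values and from how the 10 genes were specified. The column taken so held 7955914 and 10816295 counts in replicates 1 and 2, the other 955977 and 1456833. Gene IDs without version were matched to GENCODE M21 symbols and coordinates on the same assembly (1894 of 1973), 5 of the 10 genes with the same version. The genes, lists and tests were chosen with earlier results of these data known. Genes named besides the 10 are the detected other neural genes, muscle markers and the nearest genes above and below in mean CPM; the rest were named after their values were seen.

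TMM factors were 1.09 and 0.918 (edgeR 4.0.16, R 4.3.3) from the 365 detected genes. The binomial test (scipy 1.17.1, Python 3.11.15) was checked on simulated data with set folds and counting error only. That check held no variation between samples, so it does not show how the test behaves where such variation exists. Sequences are from RefSeq, with all 10 genes matched, and were searched on both strands in 2242 hairpins of GENCODE M21 and RefSeq at other positions, exact matches only. Alternatives used counts on either strand, library totals, DESeq2 1.42.0 size factors, count minimums of 1 and 50 and a fold minimum of 1.5. Replicates 1 and 2 differed beyond sampling noise and were not merged.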

Additional observations from a re-analysis of the deposited data

Results flagged for a closer look

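Counts on the strand opposite to the annotated one lie outside the levels above. All 10 neural genes had 0 of them in both libraries. Of the other neural genes, Mir338 had more than 3 in both, 24 counts in replicate 1 and 4 counts in replicate 2, beside 2977 and 2088 on its own strand. GENCODE M21 annotates Mir3065 on that other strand, a gene whose row is not analysed here.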

How the results depend on the processing

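Counts on either strand have a larger total and lowered the level of Mir128-1 to 405 CPM and of Mir132 to 107 CPM. Summed levels became 749 CPM for miR-128, 118 CPM for Mir132 with Mir212, 867 CPM for the genes also known in muscle and 906 CPM for all 10. The 10 genes have 0 counts on the opposite strand, so the larger total alone moved them. With TMM the genes also known in muscle summed to 980 CPM. Called genes numbered 27 of 365, but 42 with library totals, 15 of 278 with a count minimum of 50 and 72 with a fold minimum of 1.5. Those higher in replicate 1 were 23, and 41, 13 and 52 under the same alternatives. Those higher in replicate 2 were 4, and 1, 2 and 20, with 2 also at a count minimum of 1. Of the 10 genes, 3 remained called except with DESeq2 size factors, where Mir138-2 had 0.99 and 2 remained. The sum of the mainly neural genes was 24.7 CPM without replicate 1 and 63.3 CPM without replicate 2, over a mean of 44.0 CPM. Without Mir9-2 and Mir9-3, which have no mature strand of their own, no miR-9 value is left, and with a count minimum of 50 none for Mir218-1. No paired analysis was possible because the samples form 1 group. Few counts widen the intervals of the miR-9 genes and Mir218-1, and for miR-9 the share of this from reads that fit several places was not tested.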
